A study of Rattus norvegicus with 30 samples.

Results

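The proteasome subunits described here are the proteins of the core particle, of its immunoproteasome form, of the base and lid of the regulatory particle, and of the PA28 activator. They were taken as 37 named genes, each read from its probe set with the highest mean signal over the arrays. A probe set annotated to that symbol alone was found for 35 of them, and all 35 passed a filter on dim signals, among 11513 genes tested. Psmb6 and Psme3 were represented only by probe sets annotated to several genes and were not analysed here. The classes tested were the alpha ring (7 of 7), the beta ring (6 of 7), the immunoproteasome subunits (3 of 3), the base (9 of 9), the lid (8 of 8) and PA28 (2 of 3).

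Transcripts were measured on oligonucleotide arrays in primary hepatocytes of male Sprague Dawley rats, which had been bought frozen, thawed and kept in culture under a Matrigel overlay. Chlorpromazine hydrochloride, an antipsychotic drug of the phenothiazine class known to injure the liver in some patients, was added on day 3 at 0.8 or 20 µM, and control wells got the vehicle, 1% dimethyl sulfoxide. How much dimethyl sulfoxide the treated wells held is not in their titles. Cells of 5 wells were harvested after 24 or 48 h in each of the 6 combinations of dose and time, with 1 array per well and 30 arrays in all. The wells are described as independent cultures with no animal named for each, and p-values therefore reflect differences among cultures. The study asked how these cells respond to the drug with dose and time. One vehicle array at 24 h (replicate 2) has 2 h in its title and 24 h in its time entry, and it was grouped by the entry.

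The proteasome is the main protease of the cytosol and nucleus and breaks down proteins that carry a ubiquitin chain. Its core is a barrel whose outer alpha rings gate the entry and whose inner beta rings hold the catalytic sites. The regulatory particle binds the barrel end: the base unfolds the substrate with a ring of ATPases, and the lid removes ubiquitin before the substrate enters. Under interferon, cells make the subunits Psmb8, Psmb9 and Psmb10, which replace the constitutive catalytic subunits in newly built cores, and the PA28 activator of Psme1 and Psme2, which changes the peptides released for display on MHC class I. In the hepatocyte, a cell that makes and turns over much protein, the constitutive form prevails. When proteasome capacity is short, the membrane-bound transcription factor NFE2L1 is processed and raises transcription of the subunit genes together.

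The promoters of the members most of the results turn on are given first, because the induced subunits are known to answer to interferon through short elements near their start sites. RefSeq promoter windows of build GRCr8, from 250 bases before to 50 bases after the start, were found for 33 of the 37 members (not for Psma7, Psmd6, Psmd12 and Psmd14). The capitals mark an interferon-stimulated response element, searched as GAAA, any 2 bases and GAAA again on either strand, in the immunoproteasome and PA28 genes, and CCAAT in Psma5, the core subunit with the largest change. Each sequence is written 5′ to 3′ in the direction of its gene.

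Psmb8, GRCr8 chr20:4656982-4657281, minus strand: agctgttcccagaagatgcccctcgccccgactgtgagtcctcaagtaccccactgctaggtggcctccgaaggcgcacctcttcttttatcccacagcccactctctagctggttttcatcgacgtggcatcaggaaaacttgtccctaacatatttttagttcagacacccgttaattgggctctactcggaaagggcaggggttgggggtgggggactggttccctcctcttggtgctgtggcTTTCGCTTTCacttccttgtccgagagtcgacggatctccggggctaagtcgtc

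Psmb9, GRCr8 chr20:4668750-4669049, plus strand: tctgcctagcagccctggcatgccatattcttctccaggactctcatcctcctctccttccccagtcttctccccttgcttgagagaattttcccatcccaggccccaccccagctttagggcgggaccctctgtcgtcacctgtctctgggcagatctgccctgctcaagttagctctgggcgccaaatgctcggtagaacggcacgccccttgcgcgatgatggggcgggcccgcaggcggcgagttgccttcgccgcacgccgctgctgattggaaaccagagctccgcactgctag

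Psmb10, GRCr8 chr19:50743243-50743542, minus strand: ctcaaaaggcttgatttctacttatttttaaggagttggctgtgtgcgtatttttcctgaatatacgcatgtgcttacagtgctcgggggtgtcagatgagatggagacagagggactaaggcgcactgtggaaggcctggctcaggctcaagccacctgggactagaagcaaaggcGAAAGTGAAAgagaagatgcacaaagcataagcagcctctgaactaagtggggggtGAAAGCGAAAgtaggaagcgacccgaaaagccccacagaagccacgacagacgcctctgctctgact

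Psme2, GRCr8 chr15:33052702-33053001, minus strand: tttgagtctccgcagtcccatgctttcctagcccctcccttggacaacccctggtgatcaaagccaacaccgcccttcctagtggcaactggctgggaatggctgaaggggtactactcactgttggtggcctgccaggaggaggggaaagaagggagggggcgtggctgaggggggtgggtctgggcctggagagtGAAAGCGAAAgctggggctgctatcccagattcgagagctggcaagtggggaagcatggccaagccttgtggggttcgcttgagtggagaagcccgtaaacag

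Psme1, GRCr8 chr15:33038721-33039020, plus strand: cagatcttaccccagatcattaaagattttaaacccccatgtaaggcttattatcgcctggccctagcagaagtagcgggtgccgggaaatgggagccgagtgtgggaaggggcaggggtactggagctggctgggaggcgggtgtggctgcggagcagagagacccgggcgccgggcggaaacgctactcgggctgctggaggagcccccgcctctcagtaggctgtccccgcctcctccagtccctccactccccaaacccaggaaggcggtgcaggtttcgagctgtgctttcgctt

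Psma5, GRCr8 chr2:198584255-198584554, plus strand: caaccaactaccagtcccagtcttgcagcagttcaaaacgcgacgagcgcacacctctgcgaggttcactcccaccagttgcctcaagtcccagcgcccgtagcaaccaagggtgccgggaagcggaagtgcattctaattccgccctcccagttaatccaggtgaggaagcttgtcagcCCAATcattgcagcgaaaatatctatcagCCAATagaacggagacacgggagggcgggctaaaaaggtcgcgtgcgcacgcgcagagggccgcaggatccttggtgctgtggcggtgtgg

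The windows of Psmb8, Psmb10 and Psme2 held these letters, and those of Psmb9 and Psme1 did not. Psmb10 held them at 2 places on its own strand, GAAAGTGAAA and GAAAGCGAAA. In Psme2 the match was GAAAGCGAAA, and in Psmb8 the same letters lay on the opposite strand, so that the printed strand reads TTTCGCTTTC. The Psme1 window ends in TTTCGCTT, the opening letters of the Psmb8 match. Whether a match in Psme1 runs across that end could not be seen. Across the members, 6 of 33 windows held a match (18.2%), the others being Psma4, Psmb3 and Psmd7, beside 3.92% of all 33469 promoter windows of the same length. The core of an antioxidant response element, TGACNNNGC, was in 6 of 33 member windows (18.2%), namely Psma3, Psmb2, Psmb5, Psmb6, Psmd1 and Psmd3, beside 12.1% of all windows. CCAAT was in 17 of 33 (51.5%) beside 37.5% of all. All 3 motifs were searched on both strands, and matches of different motifs overlapped only in Psmb2, between CCAAT and TGACNNNGC. Psmb9 lies head to head with Tap1, the peptide transporter gene: their starts are 457 bases apart and the windows overlap by 44 bases. A match is a stretch of letters and was not tested as a binding site.

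At 20 µM about as many subunit transcripts rose as did not pass the test; the genes that rose lay in the core, the base and the lid at both times, with small changes, and the 3 immunoproteasome subunits had the largest changes at 48 h. At 24 h 17 of 35 members rose and 0 fell by limma's test (adjusted p under 0.05 over all 11513 genes; 22 and 0 at an unadjusted p under 0.05), while 13.3% of all genes rose and 23.7% changed in either direction. The median log2 change of the members was 0.144, beside 0.01 over all genes. At 48 h 19 members rose and 1 fell, with 20.3% of all genes higher, 14.9% lower and 35.2% changed in either direction, and the median was 0.19 beside 0.035. Both shares of members that rose were above those of all genes. The members were bright, with mean log2 signals from 10.6 to 15.58, where the filter cut lay near 8.08. Bright probe sets can pass with smaller changes: for Psmb5 the SE was 0.09 at a mean of 14.69 and 0.56 at 7.94. All genes include dim ones, and shares among genes of like brightness were not computed. The 20 µM groups are compared with the vehicle arrays of their own time, so the times share no arrays.

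**Figure D1:**
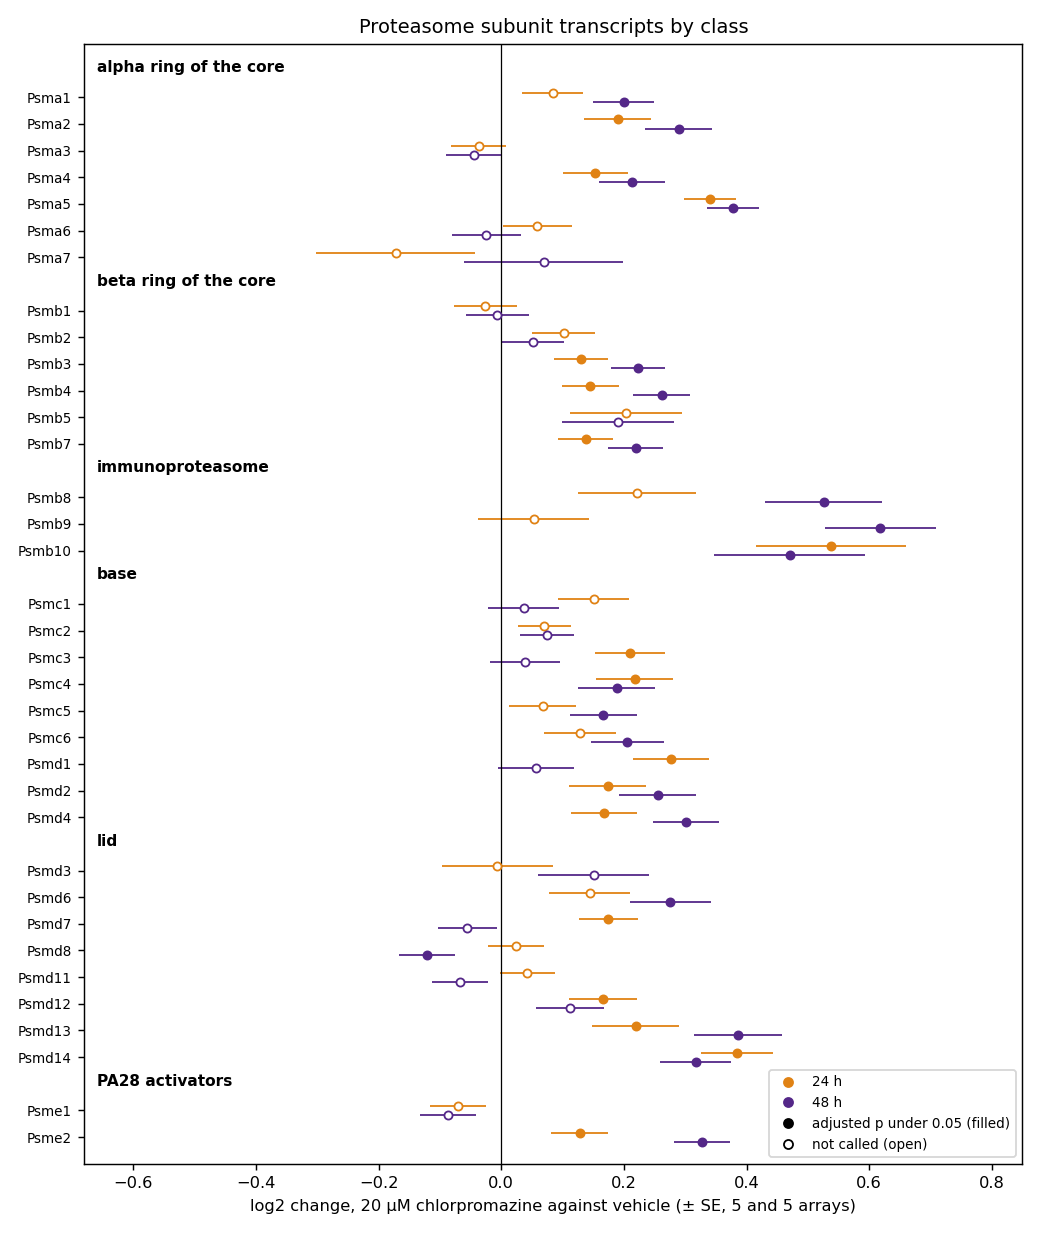
Log2 change at 20 µM chlorpromazine against vehicle for the 35 measured subunits, grouped by class, with SE (5 and 5 arrays). Orange is 24 h and purple 48 h, and filled points have an adjusted p under 0.05. Nearly all points lie between -0.2 and 0.4, and the points farthest right are those of Psmb8, Psmb9 and Psmb10 at 48 h, between 0.47 and 0.62, and of Psmb10 at 24 h, at 0.54.

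The same genes rose at both times in 13 cases: Psma2, Psma4, Psma5, Psmb3, Psmb4, Psmb7, Psmb10, Psmc4, Psmd2, Psmd4, Psmd13, Psmd14 and Psme2. Psmc3, Psmd1, Psmd7 and Psmd12 passed the test at 24 h alone, and Psma1, Psmb8, Psmb9, Psmc5, Psmc6 and Psmd6 at 48 h alone. Of these 10 genes, Psmb9 and Psmd7 are the ones whose 20 µM effects differed between the times by the interaction test. Another 11 members passed at neither time: Psma3, Psma6, Psma7, Psmb1, Psmb2, Psmb5, Psmc1, Psmc2, Psmd3, Psmd11 and Psme1. The groups of 5 arrays did not overlap for 8 members at 24 h, all higher at 20 µM, beside 9.27% of all genes with higher arrays that did not overlap. At 48 h this held for 15 members, beside 14.8% of all genes. These shares, too, were not matched for brightness. The number called at 24 h was 10 without 20 µM replicate 3 and 11 without 20 µM replicate 5, and at 48 h it stayed between 18 and 21 whichever array was left out.

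The alpha ring forms the gate of the core. At 24 h 3 of its 7 genes rose (median 0.084) and at 48 h 4 of 7 rose (median 0.2). Psma5 changed most in this ring. Its log2 signal on the 5 vehicle arrays at 24 h was 14.02, 14.05, 14.001, 14.05 and 13.96, and at 20 µM 14.29, 14.21, 14.46, 14.37 and 14.44. At 48 h vehicle gave 14, 13.91, 13.90, 13.995 and 13.93, and 20 µM gave 14.38, 14.26, 14.30, 14.38 and 14.30. Every 20 µM array lay above every vehicle array of its time. The log2 change was 0.34 ± 0.04 (SE, adjusted p = 2.29e-07) at 24 h and 0.38 ± 0.04 (adjusted p = 1.20e-08) at 48 h, a 1.27-fold and a 1.30-fold rise, by limma.

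Psma2, a neighbour in the same ring, ranged from 14.29 to 14.60 on the vehicle arrays and from 14.56 to 14.72 at 20 µM at 24 h, which overlap. The 48 h ranges were 14.24 to 14.47 and 14.59 to 14.81, which do not. Its changes were 0.19 ± 0.05 (SE, adjusted p = 0.00957, limma) and 0.29 ± 0.05 (adjusted p = 6.95e-05). Psma4, another alpha subunit, rose by 0.15 at 24 h and 0.21 at 48 h, its 24 h call being lost without any one of replicates 3 to 5 of either group (largest adjusted p = 0.108). Psma1 rose by 0.20 at 48 h (0.08 at 24 h, not past the test). Psma3 and Psma6 gave changes between -0.04 and 0.06.

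Psma7 could not be placed: its vehicle arrays were widely spread, from 13.84 to 14.64 at 24 h and from 13.75 to 14.49 at 48 h, while the 20 µM arrays lay between 14.01 and 14.20. The 95% interval of its change ran from -0.44 to 0.09 at 24 h and from -0.19 to 0.33 at 48 h. The changes of Psma5, Psma2 and Psma4 at 24 h lay above that interval.

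The beta ring carries the catalytic subunits Psmb5 (chymotrypsin-like), Psmb6 (caspase-like) and Psmb7 (trypsin-like) and the structural subunits Psmb1 to Psmb4. At each time 3 of the 6 measured genes rose, with medians of 0.134 and 0.205. These were Psmb3, Psmb4 and Psmb7 at both times. Psmb4 gave 15.48, 15.54, 15.63, 15.54 and 15.50 on the vehicle arrays at 24 h and 15.62, 15.57, 15.78, 15.68 and 15.77 at 20 µM. At 48 h it gave 15.50, 15.42, 15.49, 15.48 and 15.52, and then 15.85, 15.65, 15.77, 15.75 and 15.69. The 24 h groups overlapped and the 48 h groups did not. Its changes were 0.15 ± 0.05 (SE, adjusted p = 0.0205, limma) and 0.26 ± 0.05 (adjusted p = 3.07e-05).

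Psmb7 lay between 13.23 and 13.30 on the vehicle arrays at 24 h and between 13.36 and 13.48 at 20 µM, with no overlap. After 48 h the ranges were 13.08 to 13.22 and 13.29 to 13.53, again with none. The changes were 0.14 ± 0.04 (SE, adjusted p = 0.0232, limma) and 0.22 ± 0.04 (adjusted p = 0.000203). Psmb3 rose by 0.13 at 24 h and 0.22 at 48 h. At 24 h the calls of Psmb3, Psmb4 and Psmb7 were lost in some leave-outs: Psmb3 without vehicle replicate 1 or 5 or 20 µM replicate 3, 4 or 5 (largest adjusted p = 0.0891), Psmb4 without vehicle replicate 1 or 20 µM replicate 3 or 5 (0.0759), and Psmb7 without vehicle replicate 5 or 20 µM replicate 2 or 3 (0.0663). At 48 h none of these calls was lost.

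Psmb5, the chymotrypsin-like site that proteasome inhibitor drugs bind, was spread more widely. Vehicle at 24 h gave 14.77, 14.79, 14.44, 14.50 and 14.67, and 20 µM gave 14.86, 14.59, 15.04, 14.95 and 14.74. At 48 h vehicle gave 14.73, 14.62, 14.55, 14.73 and 14.67, and 20 µM gave 14.995, 14.71, 14.82, 15 and 14.72. The groups overlapped at both times, and the changes of 0.20 and 0.19 did not pass the test (adjusted p = 0.111 and 0.109, limma). Their 95% intervals ran from 0.02 to 0.39 and from 0.004 to 0.38, so a change like that of Psmb7 is within them. Psmb1 and Psmb2 gave changes between -0.03 and 0.10 and did not pass the test at either time.

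The immunoproteasome subunits had the highest class median at both times, 0.222 at 24 h and 0.526 at 48 h. At 24 h 1 of 3 rose (Psmb10), and at 48 h all 3 rose, by 1.39-fold to 1.54-fold. Whether this class differed from the others was not tested. Psmb9, the caspase-like position's induced subunit, gave 12.36, 12.19, 12.01, 12.51 and 11.88 on the vehicle arrays at 24 h and 12.32, 12.15, 12.19, 12.37 and 12.19 at 20 µM, inside the vehicle range. At 48 h vehicle gave 11.89, 11.88, 12.01, 11.79 and 11.76, and 20 µM gave 12.44, 12.40, 12.52, 12.62 and 12.43. All 48 h arrays at 20 µM were above all vehicle arrays of that time.

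The change of Psmb9 was 0.05 ± 0.09 (SE, adjusted p = 0.745, limma) at 24 h and 0.62 ± 0.09 (adjusted p = 1.44e-06) at 48 h. The difference between these effects, 0.57 ± 0.13, passed the interaction test (adjusted p = 0.00707), as did 4.2% of all genes, and it was kept when any of the 20 arrays involved was left out. The vehicle level of Psmb9 itself fell by 0.33 between 24 and 48 h (adjusted p = 0.0132, limma), and the 20 µM level of 12.24 ± 0.10 at 24 h stood beside 12.48 ± 0.09 at 48 h (SD, n = 5). The difference between the times thus holds both a lower vehicle mean and a higher 20 µM mean at 48 h. The rise of the 20 µM mean, 0.238, did not pass the test. The fall in vehicle was lost without vehicle replicate 4 at 24 h (adjusted p = 0.0648).

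Psmb8, which takes the place of Psmb5, gave 11.74, 11.60, 11.59, 11.90 and 11.20 on the vehicle arrays at 24 h and 11.91, 11.92, 11.78, 11.76 and 11.77 at 20 µM. At 48 h it gave 11.59, 11.47, 11.46, 11.40 and 11.74 in vehicle and 12.01, 11.97, 12.13, 12.13 and 12.05 at 20 µM. The 24 h groups overlapped through a wide vehicle group, and the 48 h groups did not overlap. The change was 0.22 ± 0.10 (SE, adjusted p = 0.0957, limma) at 24 h and 0.53 ± 0.10 (adjusted p = 4.44e-05) at 48 h. The 24 h value passed the test when arrays were centred on their medians (0.28, adjusted p = 0.0423).

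Psmb10, the dimmest member and the induced form of the trypsin-like site, gave 10.60, 10.23, 10.16, 9.75 and 10.16 in vehicle at 24 h and 10.83, 10.56, 10.77, 10.64 and 10.77 at 20 µM. Values at 48 h were 10.57, 10.74, 10.55, 10.44 and 10.22 in vehicle and 11.07, 11.03, 10.92, 11.19 and 10.65 at 20 µM. Single arrays overlapped at each time. It rose by 0.54 ± 0.12 (SE, adjusted p = 0.00123, limma) at 24 h and by 0.47 ± 0.12 (adjusted p = 0.00281) at 48 h. At 0.8 µM and 24 h its arrays gave 10.85, 10.24, 10.50, 10.38 and 10.68, a change of 0.352 from vehicle that did not pass the test. Set against 0.8 µM, the 20 µM arrays of Psmb10 did not pass the test at 24 or 48 h.

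**Figure D2:**
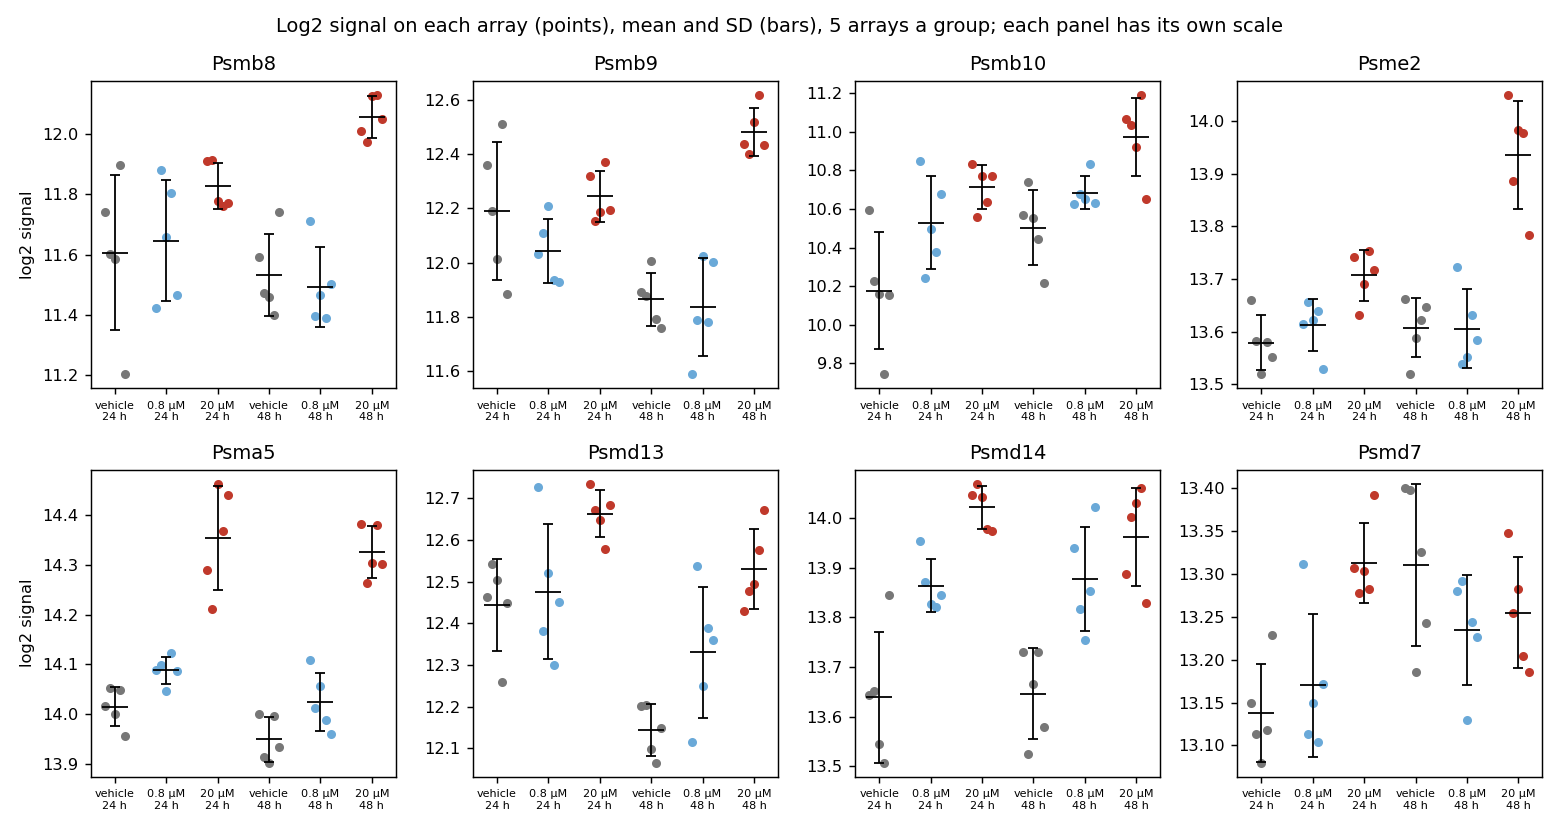
Log2 signal of 8 members on each array (points), with mean and SD as bars, for vehicle (grey), 0.8 µM (blue) and 20 µM (red) at 24 and 48 h, each panel on its own scale. At 48 h the 20 µM points of Psmb8, Psmb9, Psme2, Psma5, Psmd13 and Psmd14 stand above all vehicle points, and at 24 h those of Psmb9 lie inside the vehicle range.

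Because an induced catalytic subunit replaces a constitutive one, the ratio of their signals within an array was compared. A ratio of this kind shows unequal change and not the make-up of the protein complex, and it was not computed for Psmb9, whose partner Psmb6 had no probe set of its own. The log2 ratio of Psmb8 to Psmb5 at 48 h was -3.13 ± 0.14 in vehicle and -2.79 ± 0.13 at 20 µM (SD, n = 5), higher by 0.336 (p = 0.0159, exact two-sided permutation, adjusted p = 0.0952 over 8 tests). At 24 h it differed by 0.0184 (p = 0.921, exact permutation). The ratio of Psmb10 to Psmb7 was higher by 0.40 at 24 h (p = 0.0238, adjusted p = 0.0952, exact permutation) and by 0.251 at 48 h (p = 0.0476, adjusted p = 0.127, exact permutation). At 0.8 µM the differences were between 0.0271 and 0.288, with adjusted p of 0.254 or more. Groups overlapped in all 8 comparisons and none passed after adjustment, where 5 against 5 arrays allow no p below 0.00794.

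**Figure D3:**
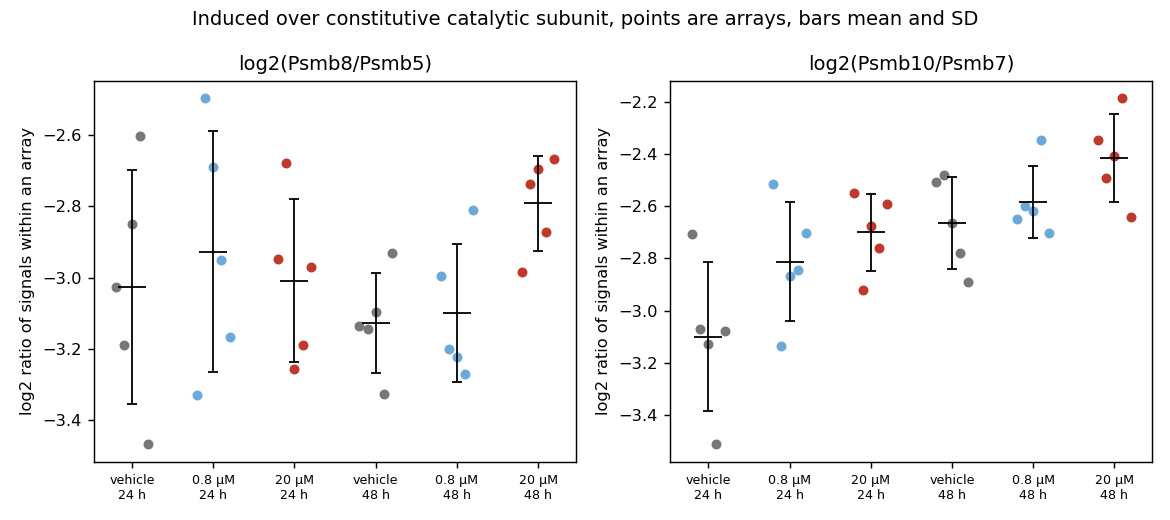
Log2 ratio of the induced to the constitutive catalytic subunit on each array (points, 5 a group), with mean and SD as bars, for Psmb8 over Psmb5 (left) and Psmb10 over Psmb7 (right). The highest mean of each panel is at 20 µM and 48 h (-2.79 and -2.41), and single arrays of neighbouring groups overlap.

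The PA28 ring sits on the core in place of the regulatory particle and is built from Psme1 and Psme2. Psme2 rose at both times, and the changes of Psme1 did not pass the test on the probe set used. Psme2 gave 13.66, 13.58, 13.52, 13.58 and 13.55 in vehicle at 24 h and 13.74, 13.63, 13.69, 13.75 and 13.72 at 20 µM. After 48 h it gave 13.66, 13.52, 13.59, 13.62 and 13.65, and then 14.05, 13.89, 13.98, 13.98 and 13.78. The 24 h groups overlapped by 1 array and the 48 h groups did not. It rose by 0.13 ± 0.05 (SE, adjusted p = 0.0407, limma) at 24 h, a call kept without vehicle replicate 1 or 20 µM replicate 2 and lost without any of the other 8 arrays (largest adjusted p = 0.101), and by 0.33 ± 0.05 (adjusted p = 7.14e-07) at 48 h.

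Psme1 lay between 14.24 and 14.33 in vehicle and between 14.08 and 14.24 at 20 µM at 24 h, and between 14.23 and 14.42 against 14.16 and 14.36 at 48 h. Its changes of -0.07 and -0.09 did not pass the test (adjusted p = 0.301 and 0.154, limma), with upper 95% limits of 0.02 and 0.01. A second, dim probe set of Psme1 (mean log2 signal 8.5, against 14.24 for the one used) gave 0.22 and 1.98 in the fit over all probe sets, the latter with an adjusted p of 0.0116, so the probe sets of this gene disagree.

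Other genes act on the same peptides. In the list of MHC class I loading, 2 of 11 tested genes rose and 1 fell at 24 h, and 3 rose and 1 fell at 48 h, so 27.3% and 36.4% were called, close to the 23.7% and 35.2% of all genes. Tap1, the transporter beside Psmb9, rose by 0.34 ± 0.12 (SE, adjusted p = 0.0264, limma) and 0.56 ± 0.12 (adjusted p = 0.000239). Erap1, which trims peptides in the endoplasmic reticulum, gave 0.17 at 24 h, not past the test, and rose by 0.42 at 48 h. Tapbp, which holds the transporter to class I, gave 0.17 and rose by 0.24 at 48 h. Calr, the chaperone calreticulin, gave -0.29 at 24 h and fell by 0.78 at 48 h.

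Interferon response genes outside the proteasome went in both directions. Of 13 tested, 1 rose and 3 fell at 24 h, and 4 rose and 2 fell at 48 h, with medians of -0.016 and -0.067. Thus 30.8% and 46.2% were called, beside 23.7% and 35.2% of all genes. Between 24 and 48 h in vehicle alone, 8 of the 13 fell and 1 rose (median -0.654), and at 20 µM 6 fell and 1 rose (median -0.41). The 48 h changes are thus measured against a vehicle level that had fallen for most of the list. The antiviral gene Rsad2 rose by 0.86 and 1.48. Gbp2, a guanylate binding protein, and Isg15, a ubiquitin-like protein, gave 0.40 and 0.09 at 24 h and rose by 1.196 and 0.91 at 48 h. Mx2 fell by 0.69 at 24 h and gave -0.52 at 48 h. The list therefore has no single direction beside the rise of the immunoproteasome subunits.

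Other cell types in the cultures could carry immunoproteasome transcripts, and in bulk RNA fewer cells of a type and less RNA per cell cannot be told apart. Of 12 macrophage markers 10 were above the filter (not Marco and Adgre1). At 24 h 0 of 10 rose and 1 fell (Lyz2, by 0.40), and at 48 h 1 rose and 3 fell. Thus 10% and 40% were called, beside 23.7% and 35.2% of all genes. The one that rose at 48 h was Cd68, a lysosomal membrane protein, by 1.44, while Lyz2 fell by 0.79, C1qa by 0.33 and Cd5l by 0.46. The summed signal of the list was 13458 to 15584 in vehicle and 10252 to 12521 at 20 µM at 48 h, and 15702 to 16879 and 13490 to 14631 at 24 h, lower at 20 µM with no overlap at either time. Such a sum is carried by its brightest markers. Gene by gene, 5 of 10 changes were above 0 at 24 h (median 0.024) and 2 of 10 at 48 h (median -0.223). Of 12 lymphocyte markers 5 were above the filter, and their sum was 1844 to 2472 in vehicle and 1696 to 2068 at 20 µM at 48 h. At 24 h 1 of those 5 fell (Cd4, by 1.70) and at 48 h none passed.

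Endothelial (6 of 8 above the filter), stellate (8 of 10) and bile duct markers (2 of 6) had 0 members higher at either time, with Eng and Krt19 lower at 24 h. Of the hepatocyte markers, 7 of 8 were above the filter and 1 fell at 48 h (Fgb, by 0.25), with sums of 530872 to 675921 in vehicle and 510556 to 660255 at 20 µM, in which the groups overlap. The part of any of these cell types in the change of Psmb8, Psmb9 and Psmb10 was not tested. Log2 ratios of 3′ to 5′ signal for Gapdh lay between 0.148 and 0.259 on all 30 arrays, and those for beta-actin between 1.06 and 1.45, with overlapping ranges in all 6 groups for both.

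The base unfolds substrates with the ATPases Psmc1 to Psmc6 and holds the scaffold subunits Psmd1 and Psmd2 and the ubiquitin receptor Psmd4. At each time 5 of its 9 genes rose, with medians of 0.168 and 0.166, and all 9 values were above 0 at both times. Psmd4 gave 12.59, 12.65, 12.58, 12.61 and 12.55 in vehicle at 24 h and 12.77, 12.77, 12.71, 12.70 and 12.88 at 20 µM. At 48 h it gave 12.57, 12.39, 12.46, 12.50 and 12.37, and then 12.88, 12.78, 12.74, 12.79 and 12.62. The groups did not overlap at either time, and the changes were 0.17 ± 0.05 (SE, adjusted p = 0.0205, limma) and 0.30 ± 0.05 (adjusted p = 3.21e-05). Without 20 µM replicate 5 the 24 h change of Psmd4 was not called (adjusted p = 0.0739).

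Psmd1, a scaffold, rose at 24 h and not at 48 h. Its arrays were 11.87, 11.78, 11.82, 11.93 and 11.98 in vehicle at 24 h and 12.16, 12.05, 12.30, 12.05 and 12.19 at 20 µM, without overlap. At 48 h they were 12.05, 12.11, 12.05, 12.07 and 11.92, and then 12.12, 12.01, 12.01, 12.19 and 12.14, with overlap. The changes were 0.28 ± 0.06 (SE, adjusted p = 0.000905, limma) and 0.06 ± 0.06 (adjusted p = 0.533). The difference between these effects did not pass the interaction test. The vehicle mean of Psmd1 was higher at 48 than at 24 h by 0.164, which did not pass the test. At 24 h its 0.8 µM arrays (11.981 to 12.156) all lay above the vehicle arrays (up to 11.976), a change of 0.183 that did not pass. Set against 0.8 µM at 24 h, its 20 µM arrays did not pass either.

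Psmd2, the other scaffold, ranged from 13.30 to 13.52 in vehicle and 13.49 to 13.73 at 20 µM at 24 h, and from 13.27 to 13.46 and 13.54 to 13.65 at 48 h. It rose by 0.17 and 0.25, the 24 h call being lost without vehicle replicate 2 or 4 or 20 µM replicate 1, 3, 4 or 5 (largest adjusted p = 0.133). Among the ATPases, Psmc4 rose by 0.22 and 0.19, the latter being lost without vehicle replicate 1 or 3 or 20 µM replicate 2 or 4 (largest adjusted p = 0.0683). Psmc3 rose by 0.21 at 24 h and gave 0.04 at 48 h. Psmc5 and Psmc6 gave 0.07 and 0.13 at 24 h and rose by 0.17 and 0.21 at 48 h, the call of Psmc5 being lost without 20 µM replicate 1 (adjusted p = 0.0548). The 48 h rise of Psmc6 rests on 1 probe set: the others gave 0.14 and -0.01 (adjusted p = 0.411 and 0.978, limma over all probe sets). Psmc1 and Psmc2 gave values between 0.04 and 0.15 that did not pass.

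The lid cuts the ubiquitin chain off the substrate through the metalloprotease Psmd14, which works as a pair with Psmd7. At 24 h 4 of 8 lid genes rose, and at 48 h 3 rose and 1 fell, with medians of 0.155 and 0.132. Psmd14 gave 13.64, 13.65, 13.55, 13.51 and 13.85 in vehicle at 24 h and 14.05, 14.07, 14.04, 13.98 and 13.97 at 20 µM. At 48 h it gave 13.73, 13.53, 13.66, 13.73 and 13.58, and then 13.89, 14.003, 14.03, 14.06 and 13.83. No 20 µM array fell among the vehicle arrays at either time. The changes were 0.38 ± 0.06 (SE, adjusted p = 5.57e-06, limma) and 0.32 ± 0.06 (adjusted p = 4.78e-05), and its other probe sets gave 0.33 and 0.50 in one case and 0.24 and 0.19, not past the test, in the other.

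Psmd13, a structural lid subunit, gave 12.46, 12.54, 12.50, 12.26 and 12.45 in vehicle at 24 h and 12.73, 12.67, 12.65, 12.58 and 12.68 at 20 µM. Values at 48 h were 12.20, 12.20, 12.10, 12.07 and 12.15, and then 12.43, 12.48, 12.49, 12.58 and 12.67. Neither pair of groups overlapped. It rose by 0.22 ± 0.07 (SE, adjusted p = 0.0224, limma) and 0.39 ± 0.07 (adjusted p = 5.27e-05), while its vehicle level fell by 0.30 between the times (adjusted p = 0.00391). The 24 h call was lost without 20 µM replicate 1 or vehicle replicate 4 (largest adjusted p = 0.0907).

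Psmd7 gave 13.15, 13.11, 13.08, 13.12 and 13.23 in vehicle at 24 h and 13.31, 13.28, 13.30, 13.28 and 13.39 at 20 µM. At 48 h the values were 13.40, 13.40, 13.19, 13.32 and 13.24, and then 13.35, 13.25, 13.28, 13.20 and 13.18. The first pair did not overlap and the second did. The change was 0.17 ± 0.05 (SE, adjusted p = 0.00673, limma) at 24 h and -0.06 ± 0.05 (adjusted p = 0.414) at 48 h, a difference of -0.23 ± 0.07 between the times (adjusted p = 0.0470). That difference was kept without vehicle replicate 5 at 24 h, vehicle replicate 3 or 5 at 48 h or 20 µM replicate 1 at 48 h, and was lost without any of the other 16 arrays (largest adjusted p = 0.0983), and a second probe set gave 0.20 and 0.22, a difference of 0.02. The time pattern of Psmd7 thus held for 1 of its probe sets.

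Among the remaining lid genes, Psmd6 ranged from 13.39 to 13.70 in vehicle and 13.70 to 13.80 at 20 µM at 24 h, and from 13.15 to 13.66 and 13.55 to 13.78 at 48 h. It gave 0.14 at 24 h, not past the test, and rose by 0.28 at 48 h. Psmd12 rose by 0.17 at 24 h, a call lost without vehicle replicate 3 or 5 or 20 µM replicate 2, 3 or 4 (largest adjusted p = 0.107), and gave 0.11 at 48 h. Psmd8 fell by 0.12 at 48 h (adjusted p = 0.0378, limma), the one fall among the members, and the call was lost without vehicle replicate 1, 4 or 5 or 20 µM replicate 2, 3 or 5 (largest adjusted p = 0.113) and with arrays centred on their medians. Psmd3 gave -0.01 and 0.15. Psmd11 gave 0.04 and -0.07 by the probe set used (mean log2 signal 13.26), and 0.37 at both times by another almost as bright (13.21), adjusted p = 9.93e-06 and 4.58e-06 in the fit over all probe sets.

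The mean deviation of a class from the vehicle mean of the same time shows how the arrays line up. Over all 35 members, vehicle arrays lay between -0.023 and 0.027 and 20 µM arrays between 0.071 and 0.215. The lowest 20 µM array at 24 h was above the highest vehicle array for the beta ring (0.044 against 0.033), the base (0.1 against 0.058), the lid (0.088 against 0.039) and all members. It was not for the alpha ring (0.013 against 0.067), for PA28 (-0.067 against 0.024) or for the immunoproteasome subunits (0.218 against 0.241), whose vehicle arrays were the most spread. At 48 h the 20 µM arrays lay above all vehicle arrays in the alpha ring (0.117 against 0.068), the beta ring (0.101 against 0.025), the base (0.124 against 0.035), the lid (0.108 against 0.055) and the immunoproteasome subunits (0.413 against 0.062), and not in PA28 (0.013 against 0.06). These means are a description and carry no test.

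**Figure D4:**
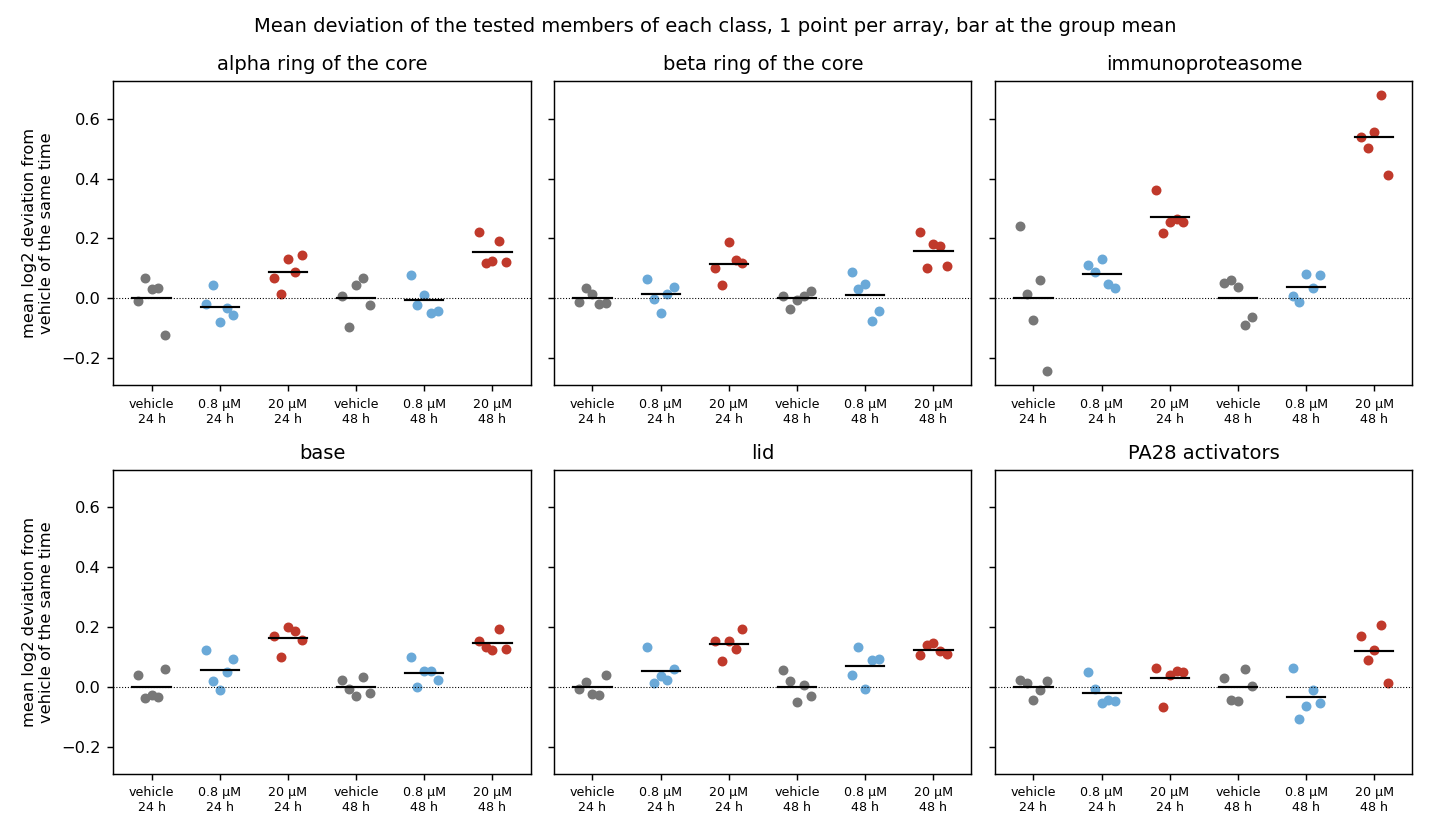
Mean log2 deviation from the vehicle mean of the same time over the measured members of each class, 1 point per array and a bar at the group mean. At 48 h the 20 µM arrays of the immunoproteasome subunits lie between 0.413 and 0.68, and those of the base between 0.124 and 0.194.

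At 0.8 µM few members moved. At 24 h 0 of 35 passed limma's test (0.825% of all genes did), with 4 higher and 1 lower at an unadjusted p under 0.05. At 48 h 1 passed, beside 3.33% of all genes: Psmd14 rose by 0.23 ± 0.06 (SE, adjusted p = 0.0209), with 13.94, 13.82, 13.76, 13.85 and 14.02 on the 0.8 µM arrays, all above the vehicle arrays. The call was lost without vehicle replicate 2, vehicle replicate 5 or 0.8 µM replicate 5 (largest adjusted p = 0.0809). At 24 h Psmd14 gave 0.23 at 0.8 µM, with arrays that overlapped vehicle. The median changes at 0.8 µM over all members were near those of all genes at 24 h (0.033 beside 0.007).

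Set directly against 0.8 µM, the 20 µM arrays were higher for 7 members at 24 h (Psma5, Psmb4, Psmb5, Psmc2, Psmc3, Psmd4 and Psmd7), beside 15.6% of all genes changed and 8.68% higher. At 48 h 13 were higher (Psma2, Psma4, Psma5, Psmb4, Psmb5, Psmb7, Psmb8, Psmb9, Psmc5, Psmc6, Psmd4, Psmd13 and Psme2), beside 26.9% changed and 14.5% higher. None was lower at either time. Psmb9 was higher by 0.65 and Psmb8 by 0.57 at 48 h, and Psma5 by 0.27 and 0.30 at the 2 times. Psmd14, which had risen at 0.8 µM at 48 h, is not among them on the probe set used. Another of its probe sets was higher at 20 than at 0.8 µM by 0.31 and 0.34 (adjusted p = 0.000294 and 3.95e-05, limma over all probe sets) and gave 0.01 and 0.16 at 0.8 µM against vehicle, neither past the test, so the probe sets of Psmd14 disagree on the dose. The 24 h number was between 1 and 4 without any one of 0.8 µM replicates 2 to 5 or 20 µM replicates 1, 3, 4 and 5, and only Psma5 was called with every array left out in turn. At 48 h the calls of Psmb5 and Psmd13 were lost in 4 of 10 leave-outs, that of Psmc6 in 5 and those of Psmb7 and Psmc5 in 7. The Psmc6 call was also lost with its second probe set or the mean of its probe sets.

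With time in vehicle alone, 5 members changed between 24 and 48 h, beside 13.2% of all genes. Psma3 rose by 0.34 and Psmd7 by 0.17, and Psmb9 fell by 0.33, Psmd13 by 0.30 and Psmd3 by 0.27. The rise of Psmd7 was lost without vehicle replicate 2 at 48 h (adjusted p = 0.0505), and its second probe set gave -0.07. Psma3, an alpha ring subunit whose changes at either dose did not pass the test, gave 12.15 to 12.30 on the 24 h vehicle arrays and 12.49 to 12.65 on those at 48 h. It rose likewise at 0.8 µM (0.31) and at 20 µM (0.33), where 6.19% and 10.4% of all genes changed with time. At 20 µM Psme2 also rose by 0.23 and Psmc3 fell by 0.19, a call lost without 24 h replicate 1 or 4 or 48 h replicate 1, 2 or 3 (largest adjusted p = 0.0955). Without vehicle replicate 4 at 24 h or vehicle replicate 2 at 48 h, 3 members rather than 5 changed with time in vehicle, and the fall of Psmd3 was kept without vehicle replicate 4 or 5 at 48 h and lost without any of the other 8 arrays (largest adjusted p = 0.137).

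Transcripts of proteins that build the proteasome or sit on it also rose. Of 19 tested assembly chaperones and associated factors, 10 rose at 24 h and 11 at 48 h, and none fell, with medians of 0.145 and 0.19. Thus 52.6% and 57.9% rose, beside 13.3% and 20.3% of all genes, whose medians were 0.01 and 0.035. Psmg2, a chaperone of alpha ring assembly, rose by 0.41 ± 0.04 (SE, adjusted p = 1.30e-08, limma) and 0.38 ± 0.04 (adjusted p = 1.60e-08). Psmg3, a chaperone of the same step, rose by 0.23 and 0.32, Psmd9, which helps to assemble the base, by 0.23 and 0.37, and Ublcp1, a phosphatase of nuclear proteasomes, by 0.30 and 0.19. Pomp, the maturation factor of the core, gave 0.05 at 24 h and rose by 0.12 at 48 h, and Adrm1, a ubiquitin receptor, gave -0.01 and rose by 0.29.

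Genes of the NFE2L1 pathway did not share one direction. The genes counted mix transcription factors with genes that act on such factors as proteins, such as Ddi2, Ngly1, Fbxw7 and Btrc. In the list of NFE2L1 and its processing, 3 of 12 rose and 2 fell at 24 h, and 1 rose and 3 fell at 48 h. Thus 41.7% and 33.3% were called, beside 23.7% and 35.2% of all genes. Nfe2l1 rose by 0.19 ± 0.07 (SE, adjusted p = 0.0378, limma) at 24 h and gave 0.11 at 48 h (adjusted p = 0.233). Ddi2, the protease that cuts NFE2L1, fell by 0.45 and 0.47, and Ngly1, the glycanase that prepares it, fell by 0.30 and 0.37. Maff, a small partner protein, rose by 0.45 at 24 h and gave 0.17 at 48 h. Nfe2l2, which encodes NRF2, the regulator of the oxidant response, rose by 0.50 and 0.31. Its targets rose in 7 of 10 cases at 24 h and in 6 of 10 at 48 h, where 1 fell: Nqo1, a quinone reductase, by 1.03 and 0.99, Srxn1, a sulfiredoxin, by 0.39 and 0.68, Slc7a11, a cystine carrier, by 0.53 and 0.42, and Txnrd1, a thioredoxin reductase, by 0.33 and 0.43. Of the NRF2 targets 70% were called at each time, beside 23.7% of all genes at 24 h and 35.2% at 48 h. Processing of NFE2L1 acts on protein and was not measured.

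Among genes of substrate delivery, the share called at 24 h was near that of all genes. Of 14 tested shuttle factors and parts of the p97 segregase, 3 rose at 24 h and 6 at 48 h, and none fell. Thus 21.4% and 42.9% were called, beside 23.7% and 35.2% of all genes in either direction and 13.3% and 20.3% higher. Zfand2a, a stress-induced factor that binds the proteasome, rose by 0.67 and 0.76 and Faf1, a p97 cofactor, by 0.39 and 0.42. Zfand5 gave 0.13 and rose by 0.29 at 48 h, and Ufd1, a p97 adaptor, gave 0.08 and rose by 0.24. Of the ubiquitin genes and activating enzymes, only Uba1 and Uba6 were tested, and Uba6 rose by 0.21 at 24 h.

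**Figure D5:**
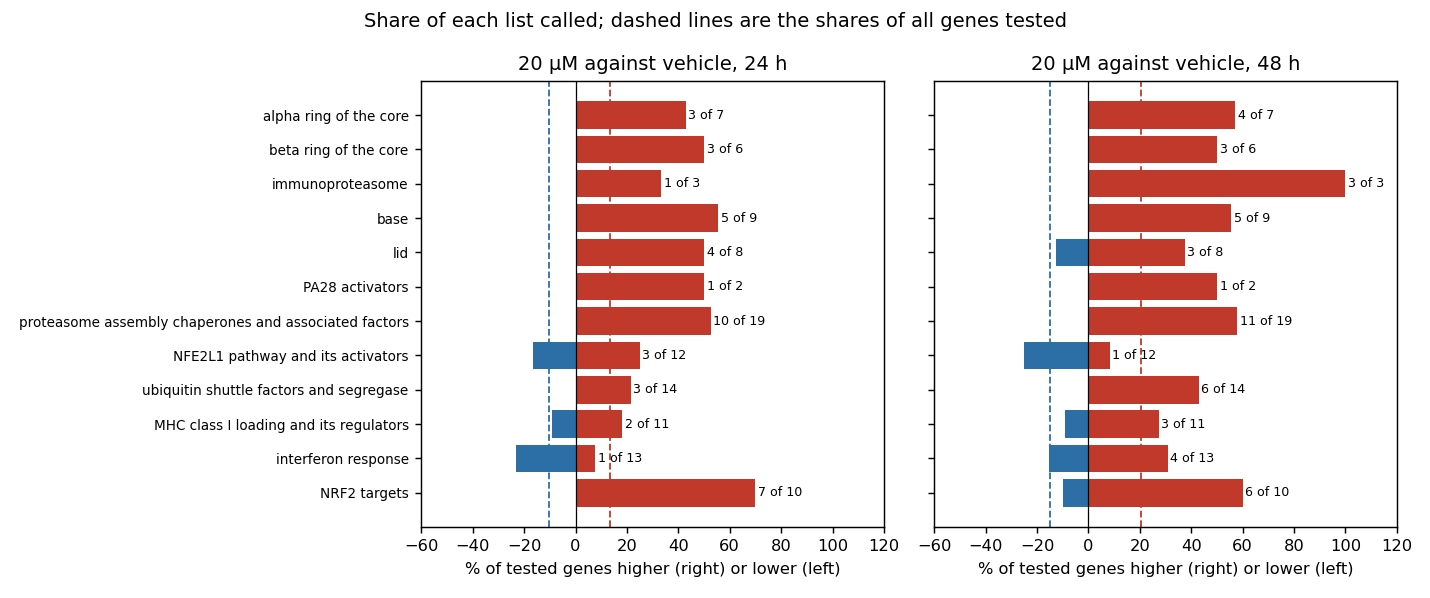
Share of tested genes that rose (red, right) or fell (blue, left) at 20 µM against vehicle at 24 and 48 h, in percent, for the 6 subunit classes and 6 related lists, with the number that rose. Dashed lines give the shares of all genes tested, 13.3% higher and 10.4% lower at 24 h and 20.3% and 14.9% at 48 h. The red bars of all 6 classes reach beyond the red line in both panels. So do those of the assembly, shuttle factor, MHC class I and NRF2 lists. The NFE2L1 list passes it at 24 h alone and the interferon list at 48 h alone. PA28 and the immunoproteasome subunits have only 2 and 3 tested genes, and 1 gene that rose carried each past the line at 24 h. The shares were not matched for brightness.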

How the data were processed

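RNA of 1 well went on each array. The authors made the probe set values with MAS5 (version not stated), per the submitters' processing notes, and deposited an intensity on a linear scale. The mean of each array's values, trimmed to the 2nd to 98th percentiles, was 1499.9, and medians ran from 380 to 449. Of 31099 probe sets, 20826 had 1 gene symbol in the platform annotation, 436 several and 9780 were not listed.

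Signals were floored at 16 (3.86% lay below it) and log2 transformed. Probe sets above the 40th percentile of their array on at least 5 arrays were kept, and the brightest represented its gene. The test was limma 3.58.1 (R 4.3.3): all 30 arrays entered a model of 6 group means, variances were moderated with a mean trend (eBayes), and p-values were adjusted by Benjamini-Hochberg over 11513 genes in each comparison. "Rose" and "fell" mean an adjusted p under 0.05. The number of arrays limits precision. Exchange ratios were tested by exact permutation. The code was tested on simulated data.

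The members and lists were chosen with earlier results of these data known. Values were given for the catalytic and PA28 subunits, for the 3 largest changes of each other class, and for up to 4 changed genes per related list. Alternatives covered the floor, filter, normalization, spread model, arrays fitted, array order, probe sets, threshold and leaving out each array. Arrays were numbered in the same order of groups in every set of 6, so position in a set cannot be told apart from group.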

Additional observations from a re-analysis of the deposited data

Results flagged for a closer look

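The effect of 20 µM differed between 48 and 24 h for Psmb9 (0.5652 higher at 48 h) and for Psmd7 (-0.2302, lower at 48 h), by limma's interaction test. For Psmb9 the vehicle mean also fell with time, and for Psmd7 a second probe set gave no such difference (0.02).

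Single arrays stood apart from the other 4 of their group in 13 of 210 groups of 5 arrays examined for the members (Dixon's test at the 95% level), where chance gives 1 in 20, or about 10.5. At 20 µM these were Psmb1 on replicate 2 at 24 h (15.17, low) and replicate 2 at 48 h (15.23, low), Psme1 on replicate 2 at 24 h (14.08, low) and replicate 4 at 48 h (14.36, high), Psmd7 on replicate 5 at 24 h (13.39, high) and Psmd6 on replicate 4 at 48 h (13.55, low). At 0.8 µM and 24 h they were Psma7 on replicate 2 (14.47, high), Psmb7 on replicate 4 (13.22, low) and Psmd11 on replicate 1 (13.39, high). At 0.8 µM and 48 h they were Psmb3 (14.77, low) and Psmb10 (10.83, high) on replicate 4 and Psmb5 on replicate 5 (14.31, low). In vehicle it was Psmc3 on replicate 5 at 24 h (13.39, high).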

How the results depend on the processing

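At 20 µM against vehicle, 17 members changed at 24 h and 20 at 48 h. Leaving out each array gave 10 to 17 and 18 to 21, and 15 other settings gave 8 (threshold 0.01) to 22 (arrays centred on their medians) and 17 to 22. Under that centring the whole table had 1849 genes higher and 828 lower at 24 h, beside 1534 and 1199 without it, and all 17 members stayed called. At 0.8 µM the counts were 0 at 24 h (0 to 1 over leave-outs, 1 with the stricter filter or array weights) and 1 at 48 h (0 to 2 over leave-outs, 0 with centring, with only the compared groups, with second probe sets or at 0.01). For 20 against 0.8 µM, 7 at 24 h became 11 with centring, 3 without the trend, 3 with only the compared groups and 1 at 0.01 (1 to 8 over leave-outs). There, centring gave 1247 genes higher and 449 lower over the whole table, beside 999 and 798. At 48 h 13 became 8 at 0.01 (9 to 14 over leave-outs). The 2 differences between the times became 1, Psmb9, under 6 settings (1 to 3 over leave-outs): centring, no trend, only the compared groups, mean or second probe sets, and 0.01. In vehicle, 5 changes with time became 3 with centring and 2 with only the compared groups or at 0.01 (3 to 7 over leave-outs). At 20 µM, 3 changes with time became 5 with only the compared groups (2 to 4 over leave-outs), and at 0.8 µM the 1 change stayed 1 throughout.

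The Psmb8 to Psmb5 difference at 20 µM and 24 h turned to -0.0263 under quantile normalization and -0.0659 with the mean of all probe sets (leave-outs -0.0918 to 0.1244). At 0.8 µM it turned to -0.2894 at 24 h with the mean of probe sets (leave-outs -0.0097 to 0.2066) and to -0.0059 at 48 h under quantile normalization (leave-outs -0.0457 to 0.0759). The cause was not tested. No adjusted p of these ratios passed under any setting. Psmb9 at 24 h ran from -0.024 to 0.1332 over leave-outs. Psme1 turned to 0.0741 and 0.9472 at the 2 times with the mean of its probe sets and to 0.2186 and 1.9808 with the second, and Psmd7 at 48 h to 0.0828 and 0.2209. The 24 h calls of Psma4, Psmb3, Psmb4, Psmb7, Psmd2, Psmd4, Psmd12, Psmd13 and Psme2 were lost in some leave-outs. The labels give no replicate number within a group and do not say which arrays of different groups belong together. No pairing was therefore taken from them, and the replicate numbers used here follow the order of the array numbers. Each 6 consecutive array numbers hold every group once, and with these sets as a block 18 and 21 members changed at 24 and 48 h.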
